A study of Mus musculus with 30 samples.

Results

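The chromatin baseline described here is that of resting wild-type NK cells, measured by ATAC-seq in the 4 untreated, unstimulated WT libraries among the 30 libraries of the series. ATAC-seq counts the places where a transposase can enter DNA, so a peak with many reads is open chromatin. Murine NK cells from spleens were kept for 5 days in culture with IL-2 and IL15:IL15Ra, so "resting" means not stimulated through NK1.1, and not free of cytokine. The 4 libraries were taken whole from the labelled group, with no choice by value. The comparisons are with 3 other groups. One is C57BL/6J (WT) cells without PGE2, stimulated for the last 4 h through NK1.1, an activating NK receptor (4 libraries). Another is unstimulated WT cells given PGE2 at 100 ng/ml for 5 h (3 libraries). The next is untreated, unstimulated cells of GzmbCre Ptger2-/- Ptger4 fl/fl mice, which lack the PGE2 receptor EP2 in all cells and have EP4 removed where the granzyme B promoter drives Cre (EP2/EP4 KO, 3 libraries). The resting C57BL/6J group itself carries no Cre, so that genotype and Cre cannot be told apart. The labels do not say whether replicates came from separate animals, so p-values measure the spread between these libraries, which may be technical.

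NK cells are innate lymphocytes that kill target cells with perforin and granzymes and release interferon gamma and chemokines when activating receptors outweigh inhibitory ones. Their chromatin is known to be shaped by T-box factors (T-bet and Eomes), Runx, Ets and Stat5 proteins, and many effector genes of NK cells are held open before any stimulus. Promoters of broadly used genes usually lie in CpG-rich DNA and are open in most cells, while distal elements in introns and between genes differ more from cell type to cell type.

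Reads in peaks ranged from 11836631 to 17980324 in the 4 resting libraries, and from 8444350 to 20153816 over all 30. The 6 pairs of resting libraries had Pearson correlations of 0.980 to 0.984 over the 38526 peaks, on log2 counts, which share peak width and base composition. Levels are given as the deposited normalised count per kb of peak width, averaged over the 4 resting libraries with the SD (n = 4). The KO labels were checked first. The Ptger2 promoter peak (chr14:44988181-44990885) held 48.6, 41.9 and 35.1 counts per kb in the KO libraries, against 207, 234, 232 and 258 in the resting WT libraries, and the Ptger4 exon peak (chr15:5241955-5243110) held 69.3, 52.2 and 67.0, against 479, 399, 442 and 375. The groups did not overlap at either locus, with log2 differences of −2.47 ± 0.12 (limma adjusted p = 8.35e-18) and −2.74 ± 0.17 (limma adjusted p = 4.01e-14). The Ptger4 promoter peak beside that exon was not called (0.01, limma adjusted p = 0.982). In bulk cells a lower count cannot tell fewer cells with an open site from a less open site in each cell.

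Promoter peaks were the most open class of the resting genome. The median promoter peak held 350.1 counts per kb, against 121 in exons, 107 in introns and 99.9 between genes, and the promoter median was 3.26 ± 0.155 times the intron median within a library. Promoters made up 12048 of the 38526 peaks (31.3%) and took 59.1% ± 0.888 of the reads. Introns with 12700 peaks took 17.8% ± 0.212, intergenic sequence with 10483 peaks took 17.5% ± 1.11, and exons with 3295 peaks took 5.64% ± 0.0483. The spread between libraries was larger for the intergenic share, which was 16.2% in replicate 1, 17.2% in replicate 2, 17.8% in replicate 3 and 18.8% in replicate 4. Replicate 1 had the highest promoter share (60.2%) and replicate 4 the lowest (58.1%).

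Ranked by count per kb, the top decile began at 631 counts per kb and held 2751 promoter peaks (71.4%), 475 intergenic, 468 intron and 159 exon peaks. In the lowest decile, under 46.2 counts per kb, promoters made up 5.66%, introns 45.7% and intergenic peaks 40.7%. Reads were concentrated: the top decile took 42.7% ± 0.699 of them, and 5026 ± 85.1 peaks held 50% of the reads. Width and level went together in part. Promoter peaks over 500 to 1000 bp wide had a median of 163 counts per kb, and those over 1000 to 1500 bp one of 370, against 89.0 and 134 in introns of the same widths, so promoters lay above introns at both widths. The spread between libraries was small at the top, with a median coefficient of variation (SD over mean) of 5.04% in the top decile, against 28.2% in the lowest, where counting error alone gives 20.6%.

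**Figure D1:**
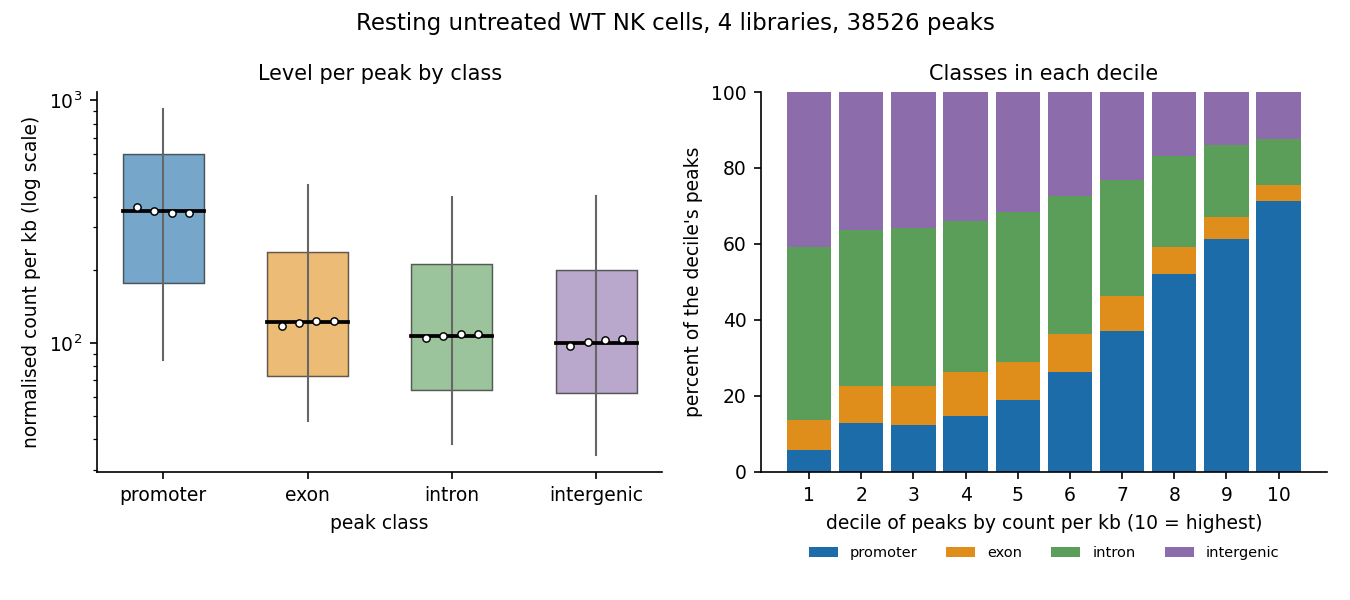
Left, normalised count per kb on a log scale by peak class in the resting untreated WT libraries, with boxes from the lower to the upper quartile, lines from the 10th to the 90th percentile, black bars at the median and white points at the 4 library medians. Right, percent of each decile's peaks that belong to each class, where promoters make up 71.4% of the highest decile and 5.66% of the lowest.

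The very highest peaks were not at the promoters of known NK genes. Above 4000 counts per kb, a limit chosen after seeing the values, lay 32 peaks, of which 30 were intergenic, 1 was in an intron of Chl1, a neural cell adhesion gene, and 1 was the promoter peak of Gm42418, a predicted gene on a ribosomal RNA repeat. The next peak below was the Osbp promoter at 3596. Of the 32, 22 were named for Mir101c and lay between 3000074 and 3038290 on chromosome 9, in sequence known for satellite repeats, and 3 were named for Lrrc4c. The highest peak, named for Lrrc4c (chr2:98666219-98667355), held 45880, 71850, 74520 and 86930 counts per kb in replicates 1 to 4. The intergenic peak named for Col19a1 (chr1:24611609-24616107), in a region known as a nuclear copy of mitochondrial DNA, held 6698, 13740, 30580 and 64780. The 32 peaks were lowest in replicate 1 in 32 cases and highest in replicate 4 in 30, and their median coefficient of variation was 26.5%, against 5.01% in the other 3821 peaks of the top decile. Together they took 1.501% to 4.39% of a resting library's reads. Without them the promoter share of reads was 60.6% ± 0.259, against 59.1% ± 0.888 with them. What part repeat content has in their level was not tested.

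**Figure D2:**
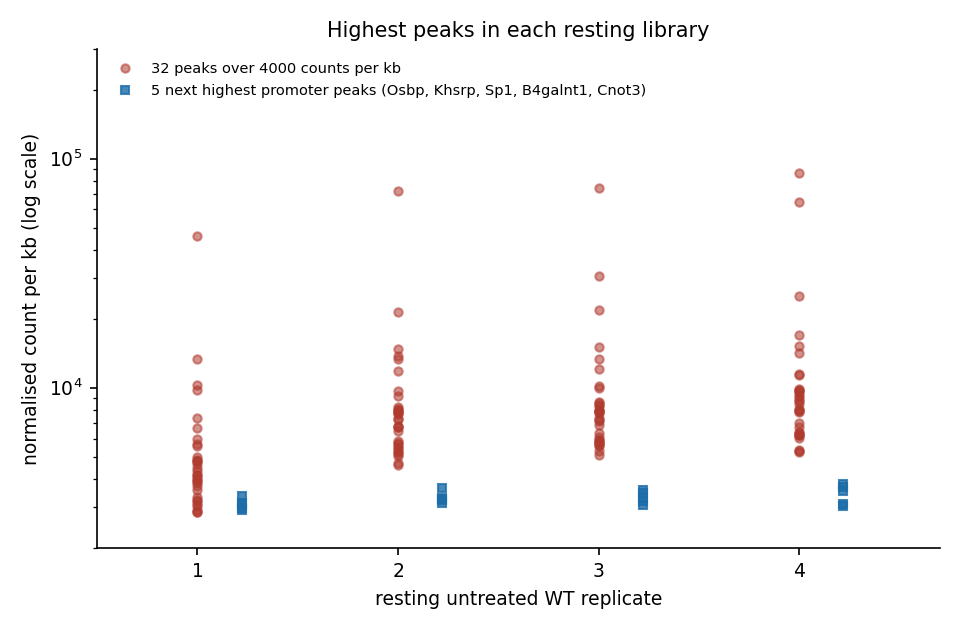
Normalised count per kb on a log scale in each of the 4 resting untreated WT replicates, for the 32 peaks over 4000 counts per kb (red circles, 1 per peak) and for the 5 promoter peaks next in rank (blue squares). The red points are lower in replicate 1 than in the other replicates in 32 of 32 peaks, while the 5 promoters stay between 2922 and 3782 in every library.

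Below those regions, promoter peaks led the ranking. The Osbp promoter (chr19:11964934-11966012), of an oxysterol-binding lipid transfer protein, held 3383, 3654, 3563 and 3782 counts per kb. Next in the class were Khsrp (3379 ± 265), an RNA-binding protein of mRNA decay, Sp1 (3312 ± 176), a zinc-finger factor that binds GC boxes, B4galnt1 (3139 ± 148), an enzyme of ganglioside synthesis, and Cnot3 (3060 ± 93.4), a subunit of the CCR4-NOT deadenylase. In introns, after Chl1, the leading peaks were those of Zc3h7a (2423 ± 325), Tex14 (2167 ± 204), Impact (1986 ± 149), Gm12216 (1983 ± 120) and the integrin gene Itgad (1975 ± 98.1). In exons they were those of Gm13031 (2499 ± 170), Clec11a (2140 ± 122), Ssc4d (2019 ± 77.5), Ing1 (1867 ± 11.9), Lars2 (1837 ± 150) and Gm12596 (1773 ± 95.5). Genes named Gm with a number are uncertain assignments. The lowest promoter peaks were those of Olr1 (7.65 ± 4.41), a scavenger receptor, Tcn2 (10.5 ± 5.62), Arhgef7 (11.2 ± 5.11), Sv2c (11.6 ± 4.64), a synaptic vesicle protein, Tnfrsf11b (11.96 ± 2.58), which encodes osteoprotegerin, and Gm30214 (13.0 ± 9.08). Their SDs overlap, so these 6 have no firm order among themselves. Each was called higher in another group, where 19.5% of all 12048 promoter peaks were called higher with stimulation and 0.54% in the KO. They were chosen as lowest in the same resting libraries that the comparisons use, so a rise was in part set by that choice. With stimulation the log2 changes were 3.41 (Olr1), 3.27 (Tcn2), 2.50 (Gm30214), 2.13 (Arhgef7) and 1.95 (Sv2c), and Tnfrsf11b rose by 2.60 in the KO. Peaks were listed once for all libraries, so promoters closed in every group are not in this ranking. A promoter low at rest could enter the list by being open in another group.

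The DNA under the promoter peaks was compared along this ranking. RefSeq windows of 300 bases (GRCm38.p6, 250 before to 50 after a gene's start) were matched to peaks by gene identifier where the start lay inside the peak. This gave 8422 windows for the 11415 genes with a promoter peak (73.8%), which is under 80%, so the values below describe these windows and cannot stand for all promoter peaks. Matched windows had a median of 22 CpG dinucleotides, against 7 in all 32841 windows, and 62% G or C, against 52.7%. The highest decile of matched windows (964 to 3596 counts per kb) had a median of 24 CpGs and the lowest (7.65 to 98.5) one of 17. The named promoters did not separate in this way. Among the lowest, Olr1 and Gm30214 had 7 and 4 CpGs, but Arhgef7 and Sv2c had 54 and 32, beside 34 in Osbp and 19 in Sp1. Level did not follow G and C content steadily. Windows of 60 to 70% had a median peak level of 449 counts per kb, those of 50 to 60% one of 359, those above 70% one of 385 and those of 40 to 50% one of 271.

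Short motifs of 10 factor families or elements were searched on both strands, none of which contains another. The letters were ACTTCCGG for ETS, GCATGCGC for NRF1, GGGCGGG for SP/KLF, AAGATGG for YY1, TGACGTCA for CRE, TGTGGTT for RUNX, AGGTGTGA for T-box, TGANTCA for AP-1, TTCCNGGAA for STAT and TATAAA for TATA. The SP/KLF letters stood in 51.4% of windows under a promoter peak and in 25.6% of all windows, and in 61.4% of the highest decile and 45.0% of the lowest. The ETS letters stood in 8.70% and 3.89%, and in 6.64% of the highest decile, 13.5% of the seventh and 1.30% of the lowest. TATA went the other way, with 6.33% under a promoter peak and 13.6% of all windows, and so did AP-1 (4.37% and 7.81%), RUNX (3.74% and 5.27%) and T-box (0.772% and 1.28%). A match is a description of letters and not a bound site.

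The windows of 8 promoters are shown to set promoters from the top of the ranking (Osbp, Sp1) beside genes of NK function (Ncr1, Prf1, Gzmb, Ifng, Tbx21) and the lowest promoter peak (Olr1). Each reads 5′ to 3′ on the gene's strand, and capitals mark matches to any of the motifs above on either strand.
Osbp (chr19:11965594-11965893, plus strand): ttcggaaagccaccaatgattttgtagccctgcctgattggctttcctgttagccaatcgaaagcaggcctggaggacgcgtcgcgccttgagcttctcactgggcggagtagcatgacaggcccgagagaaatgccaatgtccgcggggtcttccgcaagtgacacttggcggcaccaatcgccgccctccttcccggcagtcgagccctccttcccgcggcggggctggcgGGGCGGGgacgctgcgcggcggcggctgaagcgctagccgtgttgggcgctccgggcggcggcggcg
Sp1 (chr15:102406066-102406365, plus strand): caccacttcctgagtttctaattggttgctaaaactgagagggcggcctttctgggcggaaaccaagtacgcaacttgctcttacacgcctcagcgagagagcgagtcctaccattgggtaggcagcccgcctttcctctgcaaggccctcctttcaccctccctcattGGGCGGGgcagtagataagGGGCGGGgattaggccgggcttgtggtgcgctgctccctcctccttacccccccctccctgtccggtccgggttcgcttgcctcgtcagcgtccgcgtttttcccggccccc
Ncr1 (chr7:4337474-4337773, plus strand): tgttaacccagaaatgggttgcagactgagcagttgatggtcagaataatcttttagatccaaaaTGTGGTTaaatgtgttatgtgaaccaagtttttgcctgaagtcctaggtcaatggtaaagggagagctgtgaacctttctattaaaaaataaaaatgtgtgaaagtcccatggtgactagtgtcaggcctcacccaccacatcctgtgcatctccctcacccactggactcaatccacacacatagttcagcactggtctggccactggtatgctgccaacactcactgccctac
Prf1 (chr10:61297586-61297885, plus strand): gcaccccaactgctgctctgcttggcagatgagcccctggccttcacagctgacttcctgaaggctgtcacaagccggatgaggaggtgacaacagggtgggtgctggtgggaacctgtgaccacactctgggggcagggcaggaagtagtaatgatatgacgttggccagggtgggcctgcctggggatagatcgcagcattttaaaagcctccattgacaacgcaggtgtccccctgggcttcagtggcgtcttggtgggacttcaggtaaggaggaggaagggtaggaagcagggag
Gzmb (chr14:56262285-56262584, minus strand): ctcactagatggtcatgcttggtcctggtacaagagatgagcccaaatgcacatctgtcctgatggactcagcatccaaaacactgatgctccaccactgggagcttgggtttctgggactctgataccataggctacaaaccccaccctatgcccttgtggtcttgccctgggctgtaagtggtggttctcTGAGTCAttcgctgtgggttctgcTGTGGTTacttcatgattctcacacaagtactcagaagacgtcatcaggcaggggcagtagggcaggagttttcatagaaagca
Ifng (chr10:118440796-118441095, plus strand): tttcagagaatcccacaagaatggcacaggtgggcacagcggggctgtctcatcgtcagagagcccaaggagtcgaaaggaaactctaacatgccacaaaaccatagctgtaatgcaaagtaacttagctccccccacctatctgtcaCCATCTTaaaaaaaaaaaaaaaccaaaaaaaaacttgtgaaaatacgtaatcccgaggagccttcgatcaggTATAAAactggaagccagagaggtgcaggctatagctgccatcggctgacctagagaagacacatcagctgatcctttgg
Tbx21 (chr11:97115282-97115581, minus strand): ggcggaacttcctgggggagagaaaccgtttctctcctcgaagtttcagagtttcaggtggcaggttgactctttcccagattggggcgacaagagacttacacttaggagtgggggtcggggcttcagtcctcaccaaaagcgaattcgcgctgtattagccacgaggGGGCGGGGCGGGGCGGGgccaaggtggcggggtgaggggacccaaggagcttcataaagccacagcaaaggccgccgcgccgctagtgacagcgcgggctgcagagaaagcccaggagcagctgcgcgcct
Olr1 (chr6:129507116-129507415, minus strand): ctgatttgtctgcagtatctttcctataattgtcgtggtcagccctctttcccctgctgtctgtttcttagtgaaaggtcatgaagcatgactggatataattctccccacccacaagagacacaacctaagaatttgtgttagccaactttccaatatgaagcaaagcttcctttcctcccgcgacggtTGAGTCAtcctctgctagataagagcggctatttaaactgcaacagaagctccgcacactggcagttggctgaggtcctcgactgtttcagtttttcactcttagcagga
Osbp and Sp1 have 34 and 19 CpGs and SP/KLF letters, and Tbx21, the gene of T-bet, has 21 CpGs and 3 overlapping SP/KLF matches. Ncr1 has 0 CpGs, Gzmb 2, Prf1 5 and Ifng 7. Ncr1 and Gzmb hold RUNX letters, Gzmb and Olr1 hold AP-1 letters, and Ifng holds YY1 letters and a TATA match. The window of Prf1, at 610 counts per kb in its peak, holds none of the letters searched, and Olr1, with 7 CpGs, has as many as Ifng although their peaks held 7.65 and 372 counts per kb.

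Genes of NK identity were open at rest. Peaks were listed once for all 30 libraries, so counts of genes with a peak, here and below, do not show which sites were open at rest. NK receptor genes had a peak for 23 of 24 listed symbols, and the symbol without one, Cd244, is an older name of Cd244a. Their 112 peaks had a median of 317 counts per kb, at the 72.9 percentile of all peaks, where all peaks have a median of 148. Their 27 promoter peaks had a median of 490, against 350.1 for all promoters. Ncr1, which encodes the activating receptor NKp46, had a promoter peak (chr7:4337228-4340115) of 647, 711, 612 and 663 counts per kb in replicates 1 to 4, and an intergenic peak before it (chr7:4323025-4324007) of 602 ± 26.5. The 4 libraries lay within 612 to 711, and the promoter ranked 3526th of all peaks. The highest peaks of the list were an intergenic one of Klri2 (1207 ± 141), a lectin-like receptor gene, one of Ly6c2 (1023 ± 173) and a promoter-class peak of Klrc2 (982 ± 114, beside 733 for the peak at its RefSeq start), which encodes NKG2C. Klr genes resemble each other, so reads can be split among them. The Ly49 (Klra) genes, lectin-like receptors for MHC class I, had a peak for 12 of 17 symbols (Klra18, Klra19 and Klra22 are not in the RefSeq table) and a median of 231 counts per kb over 42 peaks, led by the Klra5 promoter at 688 ± 42.5.

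The killing machinery was open at a middle level. Of 26 cytotoxic granule genes 23 had a peak, with Gzmd, Gzme and Gzmg the exceptions, and their 107 peaks had a median of 176 counts per kb, at the 55.6 percentile. The Prf1 promoter (chr10:61296656-61298276), of the pore-forming protein perforin, held 656, 612, 571 and 600 counts per kb, and the other 4 Prf1 peaks had means from 74.8 to 350.3. The Gzmb promoter (chr14:56261712-56262972), of granzyme B, held 419, 423, 419 and 354, with replicate 4 low. Of the 9 Gzmb peaks the lowest, between genes (chr14:56281532-56282084), held 2.84, 14.1, 8.88 and 4.32 counts per kb and ranked 38496th. The list was led by an intergenic peak of the death ligand gene Fasl (1223 ± 92.8), the promoter of Unc13d (992 ± 64.9), a priming factor of granule release, and the promoter of the granule protein gene Nkg7 (949 ± 82.9).

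Cytokine and chemokine genes ranged from very open to nearly closed sites. All 13 genes of the list had a peak, with a median of 186 counts per kb over 68 peaks. Ifng, the gene of interferon gamma, had 18 peaks. Its highest (chr10:118470213-118471155) lay between genes and held 1188, 1158, 1114 and 1160 counts per kb, more than its promoter (chr10:118440476-118441519) with 381, 409, 365 and 334. At the other end, 11 of the 18 lay below the median of all peaks, and a peak at chr10:118447221-118448300 held 7.997, 8.998, 13.6 and 14.4. Next in the list were intergenic peaks of the chemokine genes Ccl3 (987 ± 55.96) and Ccl5 (883 ± 29.7).

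Among 30 transcription factor genes of NK cells each had a peak, 349 in all with a median of 151 counts per kb, close to that of all peaks, while their 34 promoter peaks had a median of 380. The highest were an intron peak of the repressor gene Bach2 (1617 ± 88.4), the promoter of Id2 (1368 ± 74.1), an inhibitor of E proteins that innate lymphocytes need, and a distal peak of Runx3 (1279 ± 149). The Eomes promoter (chr9:118477130-118479801) held 733, 668, 615 and 599 counts per kb. The Tbx21 promoter (chr11:97114419-97116253) held 330, 314, 297 and 312, less than its intron peak (chr11:97112356-97113129) with 563, 601, 567 and 568. All 24 genes of cytokine receptors and JAK-STAT signalling had a peak, with a median of 206. The Il2rb promoter (chr15:78494665-78495939), of the receptor chain that IL-2 and IL-15 share, held 1454, 1351, 1214 and 1103 counts per kb, and its group was led by the promoters of Ifngr1 (1521 ± 50.7), Stat3 (1390 ± 33.5) and Ifnar1 (1316 ± 44.5). The 24 genes that signal from activating receptors through ITAM motifs were also all present, led by promoter-class peaks of Lck (1519 ± 156, beside 359 for the peak at its RefSeq start) and Cblb (1346 ± 65.6) and an intergenic peak of Tyrobp (1351 ± 62.1), the adaptor DAP12.

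Genes known to be induced by activation had a higher promoter median at rest than all promoters (350.1), with a lowest level of 22.0. All 32 had a peak, and the 42 promoter peaks had a median of 512 counts per kb, against 119 for the other 151 peaks, with a promoter-class peak of Nr4a3 (chr4:48042544-48043739) at 1740 ± 82.3, beside 541 for the peak that holds the RefSeq start of Nr4a3, a distal peak of Btg2 at 1688 ± 85.1 and an exon peak of Zfp36 at 1359 ± 138. Housekeeping genes had the highest promoter median of the lists, 670 over 27 peaks, with Actb at 1841 ± 117.5. Inhibitory checkpoint genes were low, with a median of 101.4 over 56 peaks and of 100.1 over 11 promoter peaks, although the Tigit promoter reached 642 ± 36.3, an exon peak of Pecam1 490 ± 39.6 and the Cd96 promoter 451 ± 35.2. The 23 migration and adhesion genes had a median of 145, and among their highest were the promoter of the integrin gene Itga4 (1348 ± 87.2) and a distal peak of Cxcr4 (1040 ± 156). Of 15 prostanoid, adenosine and related receptor genes, 10 had a peak. The Ptger4 promoter (chr15:5243535-5244984), of the receptor EP4, held 812, 761, 660 and 656 counts per kb, and the single Ptger2 peak, of EP2, held 207 to 258. A distal peak of the adrenergic receptor gene Adrb1 (880 ± 97.8) and an exon peak of Adora2a (726 ± 42.6) were the others at the top, and no analysed peak was assigned to Adora1, Adora3, Ptgdr, Ptgfr or Ptgir.

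Lists of B cell, myeloid, erythroid and non-lymphoid genes had lower medians than all peaks. B cell markers had a peak for 9 of 14 genes, with a median of 93.0 counts per kb over 18 peaks, and the genes without one included Cd79a, Cd79b, Ms4a1 and Vpreb3. Single sites still reached 1143 ± 171 (a distal peak of Cr2, with replicate 1 low at 887), 715 ± 54.1 (a promoter-class peak of Cd72, whose peak at the RefSeq start held 192) and 293 ± 26.1 (an intron of Pax5). Myeloid markers had a peak for 11 of 19 genes (median 111), without Lyz2, Mpo, Elane, Csf3r, Clec9a, Siglech, S100a8 or S100a9, and were led by the Spi1 promoter (553 ± 24.8), Itgax (406 ± 27.8), which NK cells are known to express, and Cebpe (217 ± 14.8). Erythroid markers had a peak for 4 of 11 genes (median 96.1), without Gata1, the globin genes Hbb-bt, Hbb-bs, Hba-a1 and Hba-a2, Alas2 or Slc4a1, and were led by Klf1 (373 ± 34.2), Tal1 (131 ± 13.1) and Epor (82.9 ± 3.45). Genes of non-lymphoid tissues had a peak for 10 of 29 (median 79.7), led by an intron peak of Cdh1 (631 ± 43.5), Pou5f1 (199 ± 17.6) and Epcam (185 ± 18.5).

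T cell markers stood between. Of 19 genes, 9 had a peak, and none was assigned to Cd3g, Cd4, Cd8a, Cd8b1, Foxp3, Themis, Trac, Trbc1, Trbc2 or Tcrg-C1 (a symbol not in the RefSeq table), yet the 42 peaks had a median of 175.9 counts per kb, beside 176.4 for the cytotoxic granule genes. They included a distal peak of Bcl11b (1084 ± 77.9), an exon peak of Cd3d (873 ± 72.8) and the Cd28 promoter (825 ± 63.4). Peaks in the stretch that holds the T cell receptor alpha and delta genes are named for Dad1. The lack of a peak named Trac therefore does not show that the locus was closed. Markers of ILC2 and ILC3, the helper-like innate lymphocytes, had a peak for 13 of 14 genes, all but Il17a, with a median of 105, led by an intron peak of Rora (1036 ± 87.8), a distal peak of Kit (679 ± 70.7) and the Icosl promoter (365 ± 11.9). Whether cells of these types were present was not tested. Over the 4 libraries the list medians ranged from 160 to 179 for T cell, 83.1 to 106 for B cell and 102 to 122 for myeloid markers.

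**Figure D3:**
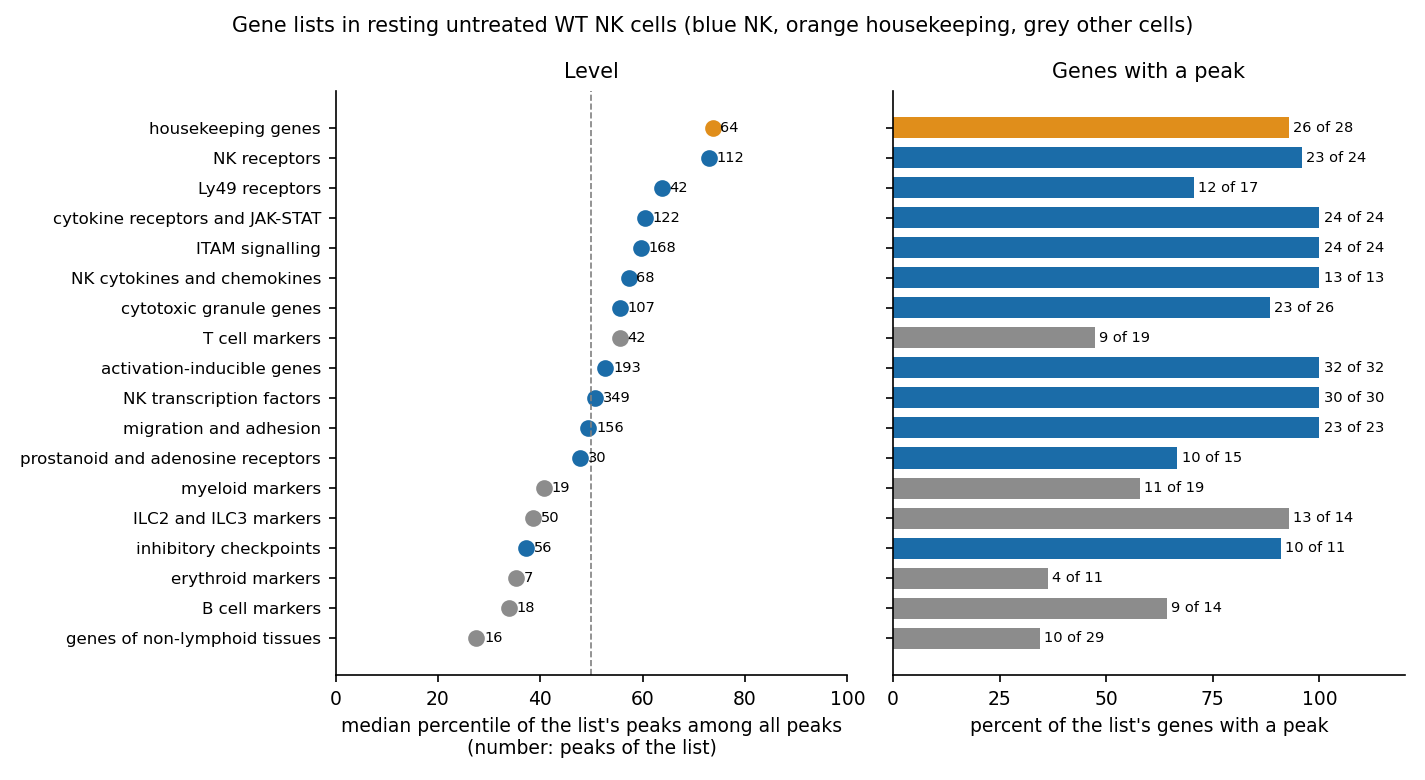
Left, median percentile of each gene list's peaks among all 38526 peaks in the resting untreated WT libraries, with the number of peaks beside each point. Right, percent of the list's genes with a peak, where NK receptors reach 23 of 24 genes and genes of non-lymphoid tissues 10 of 29. Peaks were listed once for all libraries of the series, so the right panel is not particular to resting cells.

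Peaks were unevenly spread over genes. Of 14886 named genes, 7359 (49.4%) had a single peak and 533 had 10 or more. Gm20388, a predicted gene on chromosome 8, had 99 peaks. Dad1 had 42 on chromosome 14 between 53649117 and 54239560, a stretch that holds the T cell receptor alpha and delta genes, of which 5 lay in the top decile. Mir6388 had 41 on chromosome 12 between 115105416 and 115869378, within the immunoglobulin heavy chain locus, with a highest level of 710 counts per kb. The lymphoid factor genes Foxp1 (40 peaks), Bach2 (36) and Runx1 (36), the coactivator gene Zmiz1 (36) and Gm17746 (39), whose peaks begin beside Id2 on chromosome 12, followed. A peak's gene is the one the deposited table names, so receptor loci without a named gene pass under a neighbour's name. By chromosome, the 363 promoter peaks of the X had a median of 229.8 counts per kb, below each of the 19 autosomes, which lay between 313 (chromosome 2) and 398 (chromosome 16). The Y had 15 peaks of all classes, with a median of 221.8. Counts were not corrected for chromosome copies, so a lower count on the X need not be less open chromatin, and the part of copy number was not tested.

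Stimulation through NK1.1 moved much of this landscape. In limma, 56.3% of the 38525 tested peaks were called between stimulated and resting cells, 28.9% higher and 27.4% lower (Benjamini-Hochberg adjusted p under 0.05). That was 11120 higher and 10572 lower peaks, against 9735 and 13915 after quantile normalisation. The Spearman correlation of mean counts per kb over all peaks, which share width and base composition, was 0.808, and 2978 of the 3853 peaks of the resting top decile (77.3%) were in that of stimulated cells. The Gzmb promoter held 1225, 1089, 1069 and 1105 counts per kb in stimulated cells, against 419, 423, 419 and 354 in resting cells, a log2 change of 1.47 ± 0.09 (SE, limma adjusted p = 4.58e-17). The Ifng promoter held 859, 698, 790 and 764, against 381, 409, 365 and 334 (1.06 ± 0.09, limma adjusted p = 3.01e-12), and the Prf1 promoter 1272, 1037, 1031 and 1114, against 656, 612, 571 and 600 (0.86 ± 0.07, limma adjusted p = 8.64e-13). The Tbx21 promoter held 448, 476, 375 and 372, against 330, 314, 297 and 312 (0.41 ± 0.10, limma adjusted p = 0.00073). In these 4 promoters every stimulated library was above every resting one, where 19.5% of all 12048 promoter peaks were called higher. How many other peaks separated in this way was not counted. The Ncr1 promoter held 448, 440, 417 and 415 in stimulated cells, against 647, 711, 612 and 663 at rest (−0.61 ± 0.09, limma adjusted p = 4.37e-07), with no overlap. The Eomes promoter (610, 592, 562 and 549, against 733, 668, 615 and 599) was not called (limma adjusted p = 0.108). Over all its 3 peaks, Eomes had 0 higher and 2 lower with stimulation, and the 2 lower peaks lay between genes. The Il2rb promoter rose (1706, 1624, 1361 and 1538, against 1454, 1351, 1214 and 1103, with overlap, 0.29 ± 0.12, limma adjusted p = 0.0377). That rise was lost in 5 of the 8 fits that left out 1 library, namely NK1.1-stimulated replicates 1, 2 and 4 and resting replicates 3 and 4.

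**Figure D4:**
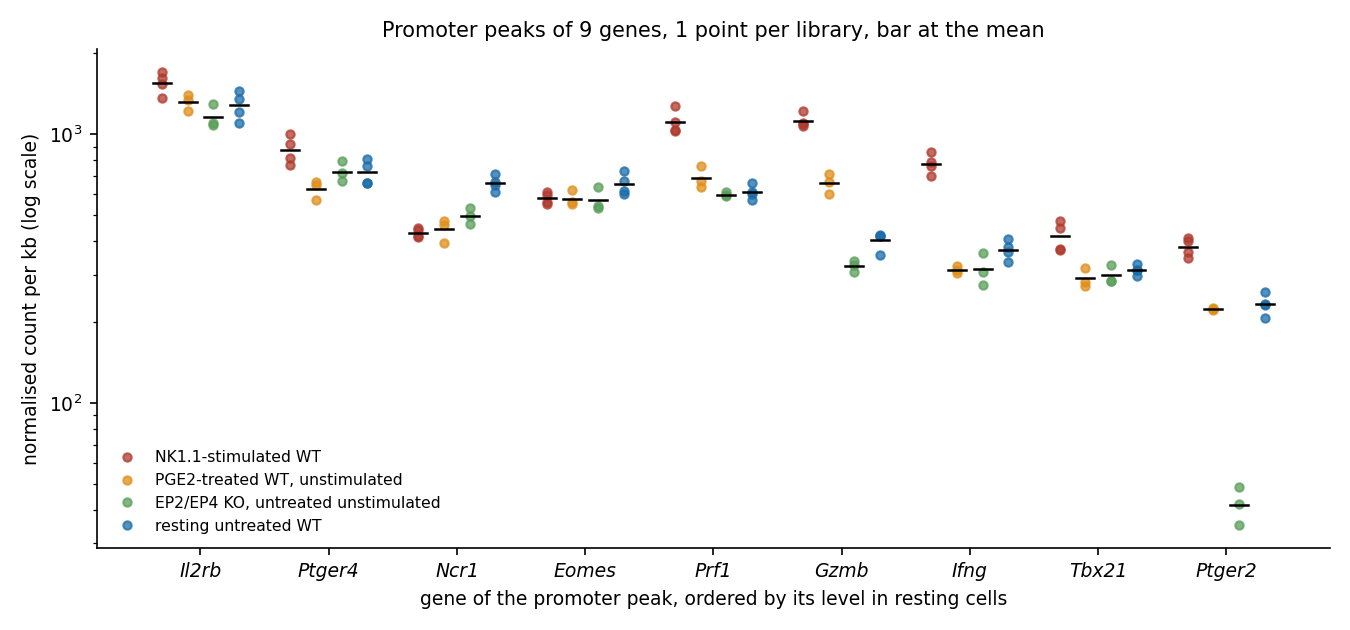
Normalised count per kb on a log scale of the promoter peaks of 9 genes, 1 point per library with a bar at the group mean, in NK1.1-stimulated WT, PGE2-treated WT, EP2/EP4 KO and resting untreated WT cells. Genes run from the highest to the lowest resting level, and the stimulated points of Gzmb, Ifng and Prf1 lie above all resting points.

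The lists moved unevenly with stimulation. Of 68 peaks of cytokine and chemokine genes 53 were called higher and 3 lower, with a median log2 change of 1.45, where all peaks had −0.02. Of 193 peaks of activation-inducible genes 129 were higher and 20 lower (median 0.75), of 107 granule gene peaks 56 and 22 (0.33) and of 56 checkpoint gene peaks 36 and 9 (0.65). Of 112 NK receptor peaks 29 were higher and 50 lower (−0.22), and of 42 Ly49 peaks 8 and 27 (−0.65), beside 28.9% higher and 27.4% lower of all peaks. T cell markers moved the same way, with 8 higher and 20 lower of 42 (−0.35), and their part in the falls of NK genes was not tested. These 7 medians kept their sign after quantile normalisation and with the factors of edgeR and DESeq2.

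Calls were also counted by level, set by libraries outside the comparison. Peaks were put in deciles by count per kb in the 3 unstimulated KO libraries. In the highest decile 8.03% of 2801 promoter peaks were called higher and 33.3% lower with stimulation, and of 1052 other peaks 15.8% higher and 51.2% lower. In the lowest decile 64.7% of 207 promoter peaks and 82.0% of 3645 other peaks were higher, and 1.45% and 3.07% lower. After quantile normalisation the shares were 12.1% higher and 39.1% lower for promoters of the highest decile, and 57.5% and 6.28% for those of the lowest. Peaks were listed once for all 30 libraries, so a site of the lowest decile could enter the list by being open in another group, the stimulated one included. Its share called higher was thus in part set by how peaks were listed, and cannot show how closed sites in general respond. Of the top decile, the peaks that fell most, by the naming rule used here, were in introns of Cox10 (438, 479, 372 and 438 counts per kb in stimulated cells, against 1522, 1514, 1374 and 1384 at rest, −1.75 ± 0.12) and Hvcn1 (−1.65 ± 0.12), a proton channel gene, and beside Slfn2 (−1.72 ± 0.15), a gene of lymphocyte quiescence. Those that rose most were in introns of Nedd9 (1.37 ± 0.08), a docking protein of adhesion signalling, Rab20 (1.35 ± 0.07) and Mid1 (1.33 ± 0.21), at which resting libraries ranged from 876 to 1759.

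**Figure D5:**
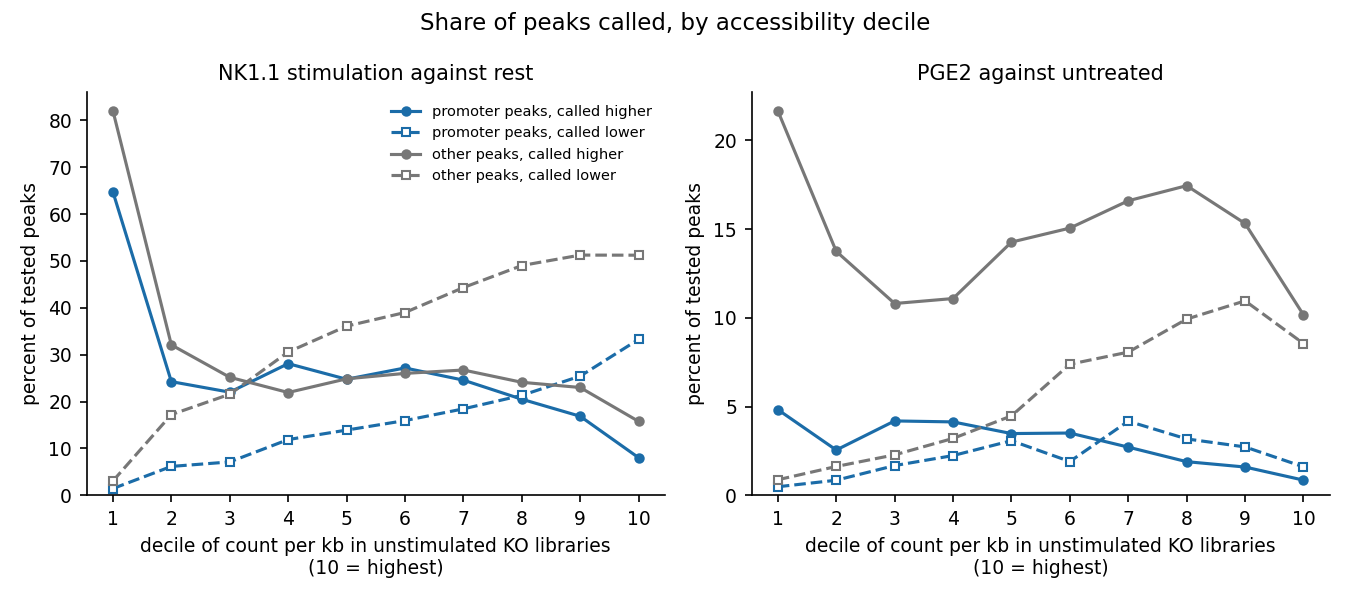
Percent of tested peaks called higher (filled, solid line) or lower (open, dashed line) by decile of count per kb in the unstimulated EP2/EP4 KO libraries, for promoter peaks (blue) and other peaks (grey). With NK1.1 stimulation (left) 82.0% of other peaks in the lowest decile are called higher and 51.2% of those in the highest are called lower, and with PGE2 (right) 21.7% of other peaks in the lowest decile are called higher. Peaks were listed once for all libraries, so sites of the lowest decile could enter the list through the stimulated or PGE2-treated groups.

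PGE2 changed resting cells less and mostly away from promoters. In limma 14.9% of 38525 peaks were called, 10.9% higher and 4.03% lower. The 1554 lower calls were 826 without PGE2 replicate 3. Of 12048 promoter peaks 2.2% were higher and 2.49% lower, and of 12699 intron peaks 16.03% and 4.39%. The Spearman correlation with resting cells was 0.961, and 3483 of 3853 top-decile peaks were shared (90.4%). The Gzmb promoter held 712, 602 and 663 counts per kb with PGE2, against 419, 423, 419 and 354 without (0.71 ± 0.09, limma adjusted p = 4.61e-07), and the Ncr1 promoter 459, 395 and 478, against 647, 711, 612 and 663 (−0.57 ± 0.10, limma adjusted p = 4.44e-05), neither with overlap. The promoters of Prf1 (0.17, limma adjusted p = 0.148), Ifng (−0.25, limma adjusted p = 0.104), Eomes (−0.18, limma adjusted p = 0.262) and Tbx21 (−0.11, limma adjusted p = 0.598) were not called. Over all their peaks, Ifng had 2 higher and 0 lower of 18 with PGE2, and Tbx21 had 2 higher and 1 lower of 10. Gzmb had 3 higher and 1 lower of 9, and Prf1 and Eomes had 0 called. Ly49 peaks were called lower in 22 and higher in 2 of 42 (median −0.49), NK receptor peaks lower in 18 and higher in 8 of 112 (−0.12), and checkpoint peaks higher in 20 and lower in 2 of 56 (0.26), with the Tigit promoter at 0.85. T cell markers were higher in 12 and lower in 3 of 42 peaks (0.14) and ILC2 and ILC3 markers higher in 14 and lower in 1 of 50 (0.18), and their part in the checkpoint rise was not tested. In the top decile set by KO libraries the largest rises were in an exon of A630001O12Rik (1.07 ± 0.10), beside Plac8 (1.01 ± 0.12) and in an intron of Rapgef1 (0.85 ± 0.10), an activator of Rap1. The largest falls were beside Grb7 (−0.77 ± 0.09), at the promoter of S1pr5 (392, 418 and 471 counts per kb with PGE2, against 606, 731, 657 and 768 without, −0.69 ± 0.10), which encodes a sphingosine phosphate receptor of NK cell egress, and beside Id2 (−0.67 ± 0.09). The peaks of Plac8 and A630001O12Rik held at least 1213 counts per kb in each PGE2 library and at most 673 in each resting one.

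The EP2/EP4 KO had the fewest called peaks of the 3 comparisons. Its Spearman correlation with resting WT cells was 0.983, and 3618 of 3853 top-decile peaks were shared (93.9%). In limma 1.73% of 38525 peaks were called, 1.09% higher and 0.636% lower, which was 420 and 245 peaks, against 160 and 147 after quantile normalisation and 418 and 273 with edgeR. The count of 665 rested on single libraries: it was 245 without KO replicate 3, 378 without KO replicate 4, 330 without WT replicate 1 and 390 without WT replicate 2. On chromosome 14, which holds Ptger2, 6.24% of peaks were called, and on chromosome 15, which holds Ptger4, 6.85%. On the other 18 chromosomes with at least 100 peaks it was 0.50% to 2.11%, and both together held 205 of the 665 calls. Counting 1 peak per gene, and leaving out those whose normalised count averaged under 50 in both groups, the largest falls of called peaks were at the Pnp2 promoter (0, 0 and 3.08 counts per kb in the KO, against 208, 201, 211 and 239 in WT), beside 5830416I19Rik (−3.47 ± 0.32) and in a peak named for Dad1 (chr14:53943134-53943846), which had 0 reads in each KO library and 91.2 ± 20.2 counts per kb in WT, at least 22.2-fold lower against a floor of 3 reads per library. The largest rises were in intergenic peaks named for Rrm2b (326, 273 and 292, against 5.65, 9.32, 16.5 and 17.2), Grhl2 (4.11 ± 0.40) and Tnfrsf11b (3.85 ± 0.32), which lie on chromosome 15. Of the 112 NK receptor peaks 0 were higher and 5 lower (2 lower after quantile normalisation and 8 with DESeq2), among them the Ncr1 promoter (534, 463 and 496 counts per kb in the KO, against 647, 711, 612 and 663 in WT, −0.40 ± 0.10, limma adjusted p = 0.0247), a call that was lost without KO replicate 3 or 4 or WT replicate 1 or 2 and after quantile normalisation.

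Shares of reads were set beside each other as a last comparison. Stimulated cells had 57.2% ± 0.389 of reads in promoter peaks, and resting cells 59.1% ± 0.888 (n = 4 each), a difference of −1.83 points with an exact two-sided permutation p of 0.0286, the smallest possible, and of 0.171 after adjustment over the 6 share tests. All 4 stimulated values lay below all 4 resting ones. The promoter share was 57.8% ± 1.31 with PGE2 and 58.5% ± 2.07 in the KO (n = 3 each), with exact permutation p of 0.229 and 0.686, where 3 against 4 libraries cannot go below 0.0571. The 1% of peaks with the highest count per kb took 8.73% ± 0.4996 of reads in stimulated cells, 9.74% ± 0.897 with PGE2, 9.57% ± 0.234 in the KO and 9.85% ± 1.22 in resting cells, with exact permutation p of 0.171, 0.857 and 0.743. Without the 32 highest peaks it was 7.09% ± 0.296 in stimulated cells and 7.71% ± 0.146 in resting cells, with an exact permutation p of 0.0286 before adjustment. Those 32 were set by the resting libraries themselves, with a limit chosen after seeing the values, so this p cannot decide whether the groups differ. With all peaks kept, the exact permutation p of 0.171 for stimulation became 0.457 after adjustment.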

How the data were processed

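ATAC-seq of cultured murine splenic NK cells was deposited as 1 table of 38526 peaks (237 to 5682 bp wide) in 30 libraries. Per the submitters' processing notes, Trimmomatic 0.39, Bowtie2 2.4.1, MACS2 2.2.7.1 and DESeq2 (version not given) were used with the mm10 build. Their order and settings are not stated. The values are the authors' deposited normalised signal, that is read counts per peak divided by a size factor per library. In every library 100% of these values came out as whole reads (tolerance 0.05, largest deviation 0.0228). Peak positions, widths, classes and gene names are those of the deposited table, and what they describe is accessibility, not expression.

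Levels were divided by peak width in kb and averaged over the 4 resting libraries. Comparisons used limma 3.58.1 (two-sided, with a mean-variance trend) on log2 of the normalised count plus 1, so folds of low peaks are understated. All 30 libraries entered the fit with a mean for each of 8 groups and no block, for the 38525 peaks with a mean of at least 10, with Benjamini-Hochberg adjustment over them and a threshold of 0.05. As the deposited values are normalised, count tests are alternatives: edgeR 4.0.16 with its quasi-likelihood test called 21888, 5911 and 691 peaks for stimulation, PGE2 and KO, and DESeq2 1.42.0 was also run. Shares of reads were compared with exact two-sided permutation tests. Scripts ran in R 4.3.3 and Python 3.11.15 (scipy 1.17.1) and were tested on simulated data.

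The named peaks are the 6 highest per class (1 per gene), the 6 lowest promoters, the 8 genes with most peaks, the 3 leading genes of each of 18 lists (a few list members are not reported here), every peak of the NK and prostaglandin receptor genes shown, and the largest called changes. The genes and lists were chosen with earlier results of these data known. Similar genes (Klr, Gzm, Ccl) and Gm and Rik names are uncertain assignments. Alternatives changed the pseudocount, the low-value filter, the normalisation, the libraries, the width scaling and the block.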

Additional observations from a re-analysis of the deposited data

Results flagged for a closer look

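Of 332 values tested in groups of 4 libraries, 17 (5.12%) had 1 library far from the other 3, where chance gives about 1 in 20. Replicate 4 was the distant one in 5 of the 11 in resting cells. It was low at the Gzmb promoter (354.2, others 418.9 to 423.1) and exon (36.95, others 43.3 to 43.74), at the Cd28 promoter (730.1, others 853 to 859.2) and in its share of reads in introns (17.51%, others 17.9% to 17.96%), and high at the Ing1 exon (1885, others 1859 to 1862), all but the share in counts per kb.

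In resting cells, replicate 2 was high at the Itga4 promoter (1478, others 1292 to 1313) and the Tbx21 intron (601.4, others 563 to 567.8), and low at the Ifng peak starting at 118404250 (130.8, others 144.6 to 145.7). Replicate 3 was low at the Itgad intron (1829, others 2009 to 2031) and beside Klra13-ps (469.2, others 521.1 to 531.1), and replicate 1 was low beside Cr2 (887.3, others 1212 to 1254).

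In NK1.1-stimulated cells, replicate 2 was high beside Rab10os (15120, others 9653 to 10450) and in the Chl1 intron (9850, others 6604 to 6983). Replicate 1 was high beside Id2 (814.8, others 746.2 to 757.7) and at the Cd3d exon (1015, others 894.7 to 901.1) and low at the Epor exon (113.2, others 127.1 to 127.5), and replicate 3 was low at the Klra5 promoter (220.0, others 272.7 to 276).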

How the results depend on the processing

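Stimulation and PGE2 calls were steadier than KO calls. With 1 library left out, limma called 20184 to 21217 peaks for stimulation, 4178 to 5319 for PGE2 and 245 to 851 for the KO. Quantile normalisation gave 23650 for stimulation (9735 higher, 13915 lower, so that lower calls became the majority, with a median log2 change of −0.11 over all peaks) and 307 for the KO. The KO count was 518 with only the 2 groups compared (237 higher, 281 lower), 245 without KO replicate 3 (110 higher, 135 lower) and 1058 with DESeq2. The cause of these shifts was not tested. With the replicate number as a block it was 1016, with 22776 for stimulation and 6694 for PGE2. The numbers were not taken to pair the samples. Over 10 pairs the correlation of same-numbered libraries, which is not that of log2 counts given above, was 0.0156 to 0.150, over 0.1 in 1. Of the 10, 6 correlated best with their own number. These were stimulated replicates 1, 2 and 4 and PGE2 replicates 2, 3 and 4, and no KO replicate. Whether WT libraries of the same number shared a batch was not tested.

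Of the named peaks that were called, 94 of 108 for stimulation, 28 of 41 for PGE2 and 9 of 12 for the KO were called under every alternative run, and 0 changed sign. With 1 library left out, the promoter share difference was −2.15 to −1.45 points for stimulation (exact permutation p = 0.0571, the smallest that size allows), −2.06 to −0.866 for PGE2 and −1.76 to 0.126 for the KO. That of the top 1% was −1.58 to −0.601, −0.617 to 0.405 and −0.740 to 0.241, and −0.623 for stimulation without the 32 highest peaks.

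At rest, promoters made up 76.8% of the top decile by count per peak, 69.4% among peaks of 500 to 2000 bp, 72.0% without the 32 highest peaks and 71.2% to 71.7% with 1 library left out. The promoter to intron ratio was 5.13 by count per peak and 3.22 to 3.32 with 1 library left out. The peaks that held 50% of the reads numbered 4650 by count per peak, 4735 among those of 500 to 2000 bp, 5265 without the 32 peaks and 5011 to 5071 with 1 library left out. Of the 18 list percentiles 15 moved beyond their library spread by count per peak, by −7.27 to 12.09 points, and 9 among peaks of 500 to 2000 bp. Depth limits the lowest decile most.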
